A study of Homo sapiens with 6 samples.

Results

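The expression of 9 genes of the NRF2 antioxidant programme was followed in A549 cells that over-expressed CELF6. The members were every row of the deposited gene tables with the symbol SLC7A11, GCLC, GCLM, TXNRD1, SRXN1, HMOX1, NQO1, AKR1B10 or AKR1C1. They were 9 of the 29889 genes in the count table, and all 9 were among the 15847 genes that passed the filter on low counts and were tested. The A549 line was derived from a human lung adenocarcinoma. It carries a mutant KEAP1, so that NRF2 is constitutively active in these cells. The cells were grown in MEM with fetal bovine serum, penicillin and streptomycin. They were transfected with Lipofectamine 2000 and either the plasmid pIRES-hrGFP-1a carrying CELF6 (CELF6-OE) or the empty plasmid (Control), and were harvested after 48 h. Polyadenylated RNA from 3 biological replicates of each group was sequenced, giving 6 libraries. CELF6 is an RNA-binding protein of the CELF family, and the study was designed to find genes whose expression or splicing differed after its over-expression.

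NRF2 is a transcription factor encoded by NFE2L2. It pairs with a small MAF protein and binds antioxidant response elements, and its targets supply glutathione and thioredoxin, clear haem, and reduce quinones and reactive carbonyls. KEAP1 hands NRF2 to a ubiquitin ligase built on CUL3, and this degradation stops when oxidants or electrophiles modify KEAP1. In lung adenocarcinoma with a KEAP1 mutation the targets stay high, and NQO1 and the aldo-keto reductases are standard readouts of that state.

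Total counts ranged from 33748328 to 35413404 over the CELF6-OE libraries and from 36422617 to 37920700 over the Control libraries, and the mitochondrial share of counts was 8.69% to 10.1%. CELF6 was at 18646, 20789 and 11571 counts in CELF6-OE replicates 1, 2 and 3 and at 0 counts in each Control library. Another gene on the same strand (ENSG00000260729) covers 88.8% of the exon bases of CELF6. It had 1097 to 1163 counts in CELF6-OE and 1440 to 1596 in Control. It thus did not gain counts in the libraries where CELF6 did. Whether reads of endogenous CELF6 were counted there was not tested, so the 0 counts are not taken as absence of its expression. The epithelial markers KRT7, KRT8, KRT18, KRT19, EPCAM and CDH1 were all detected at over 1 FPKM. Their summed level was 5041 to 5793 FPKM in CELF6-OE and 6177 to 7029 FPKM in Control. Of the 6, 4 fell at an adjusted p under 0.05, beside 11.5% of all genes tested. Of 8 markers of alveolar type II cells, 2 were above 1 FPKM in any library, and their summed level was 4.48 to 6.77 FPKM in CELF6-OE and 18.86 to 19.94 FPKM in Control, without overlap. Of 10 leukocyte markers, 2 were above 1 FPKM, and their summed level was 6.5 to 7.96 FPKM in CELF6-OE and 12.19 to 12.96 FPKM in Control, with CD3E, CD3D and NKG7 at 0. By the same test, 1 of the 3 alveolar type II markers tested and 2 of the 3 leukocyte markers tested fell. No fibroblast marker of 7 and no endothelial marker of 5 exceeded 1 FPKM. The part of the marker differences in the results for the NRF2 targets was not tested.

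The cystine carrier SLC7A11, the catalytic glutathione synthesis subunit GCLC, the thioredoxin reductase TXNRD1 and the sulfiredoxin SRXN1 rose in CELF6-OE, by 0.30 to 0.62 on the log2 scale. None of the 9 members passed as lower, though AKR1C1 and NQO1 lay below zero, at -0.29 and -0.14. GCLM, HMOX1, NQO1, AKR1B10 and AKR1C1 did not pass the test, an adjusted p under 0.05 over all genes tested. Of all genes tested, 6.52% passed as higher in CELF6-OE and 11.5% as lower, or 18% in either direction, beside 4 of 9 and 0 of 9 members. The median log2 fold change was 0.28 over the members and 0.01 over all genes tested. In 5 members, each CELF6-OE library lay above each Control library in CPM (counts relative to library size, scaled with TMM factors), which was the case for 17.9% of all genes tested. The opposite order, found for 20% of all genes, was seen in 0 members. In bulk libraries a change in the number of cells that express a gene and a change in RNA per cell cannot be told apart, and the share of cells that took up plasmid is not given in the sources used here.

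**Figure D1:**
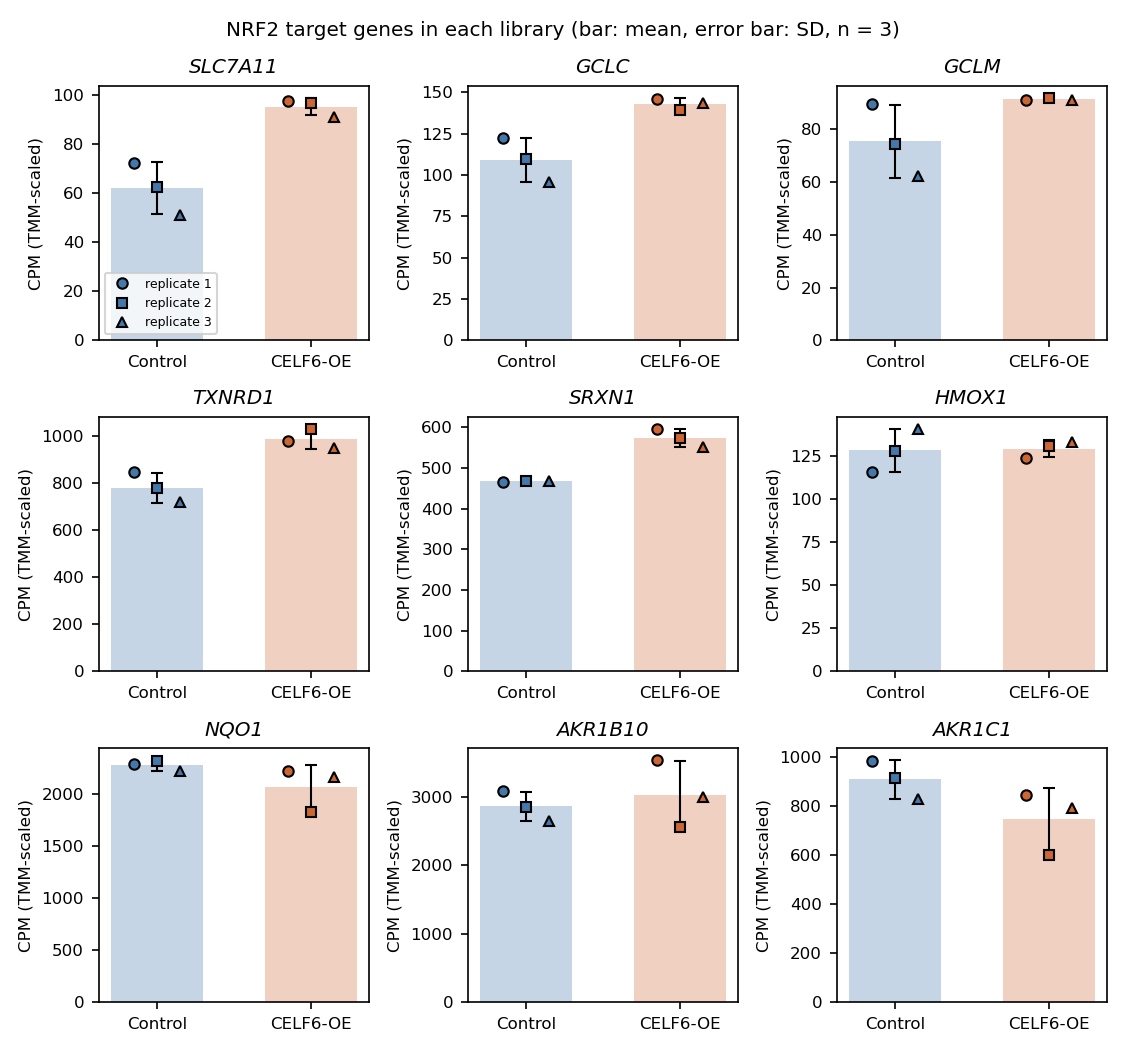
CPM scaled with TMM factors (y axis, from 0) of each NRF2 target gene in the 3 Control and 3 CELF6-OE libraries. Bars are group means, error bars the SD (n = 3) and markers the replicates. The groups do not overlap for SLC7A11, GCLC, GCLM, TXNRD1 and SRXN1, and they overlap for HMOX1, NQO1, AKR1B10 and AKR1C1.

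The members differed widely in level. On the FPKM scale, which is per transcript length, the order in Control was AKR1B10 at 1708, NQO1 at 691, SRXN1 at 164, TXNRD1 at 147, AKR1C1 at 121, HMOX1 at 66.7, GCLC at 20.7, GCLM at 14.6 and SLC7A11 at 6.12. AKR1B10 ranked 42 and NQO1 ranked 104 by mean FPKM among the 29687 genes of that table. SLC7A11, the lowest member, ranked 5900. Within each of the 6 libraries the members stood in this same order. Between libraries, SRXN1 and TXNRD1 overlapped in both groups. TXNRD1 and AKR1C1, and likewise GCLC and GCLM, overlapped in Control and were separated in CELF6-OE. No other neighbouring pair overlapped in either group. The 9 genes together took 0.721% to 0.866% of the counts in CELF6-OE and 0.696% to 0.820% in Control, so the summed share overlapped between groups. The aldo-keto reductase AKR1B10 alone had 2561 to 3532 CPM in every library.

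**Figure D2:**
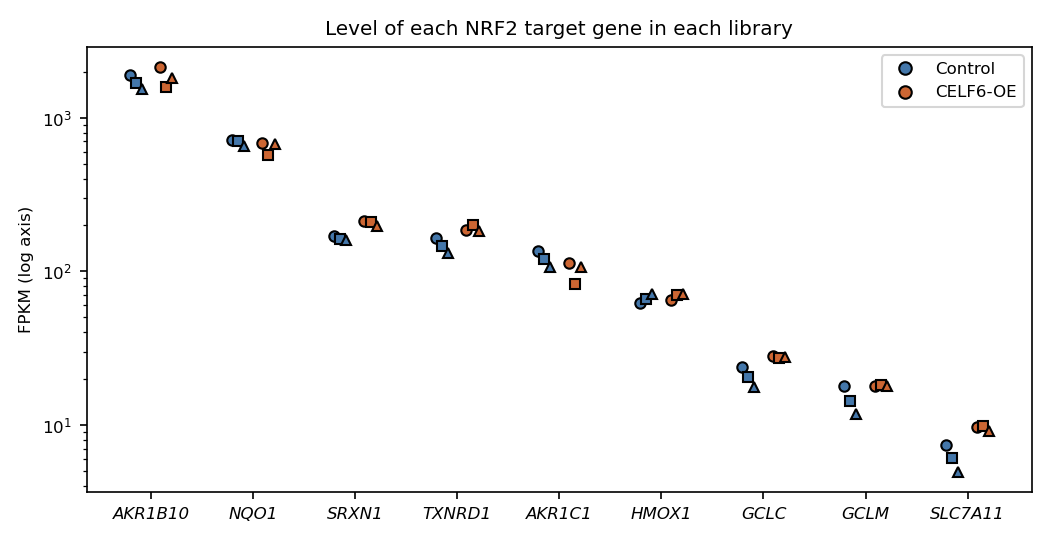
FPKM (y axis, log scale) of each NRF2 target gene in each library, with Control in blue and CELF6-OE in orange and the genes ordered by the Control mean. AKR1B10 and NQO1 lie above 570 FPKM in each library, and SLC7A11 lies below 10 FPKM.

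The first role was the supply of cysteine and glutathione. SLC7A11 (ENSG00000151012, chr4:138164097-138242349, minus strand, GRCh38) encodes the light chain of the cystine and glutamate exchanger, which brings in cystine for glutathione synthesis. It was at 97.4, 96.7 and 91.0 CPM in CELF6-OE replicates 1 to 3 and at 72.2, 62.4 and 51.2 CPM in Control replicates 1 to 3. The lowest CELF6-OE library was above the highest Control library. The mean was 9.54 ± 0.359 FPKM in CELF6-OE and 6.12 ± 1.21 FPKM in Control (SD, n = 3). SLC7A11 rose by 0.62 on the log2 scale (SE 0.10, adjusted p = 0.00221), which was 53.4% with a 95% interval of 30.8% to 79.9%. It was the only member to pass the threshold for a differentially expressed gene (DEG) of the study's methods, a fold change of 1.5 or more with p below 0.01. This threshold was passed in the higher direction by 1.4% of all genes tested and in the lower direction by 5.94%. With a correction for GC content and transcript length, SLC7A11 was higher by 0.49 and below that fold change, with an adjusted p of 3.58e-05, and without Control replicate 3 it was higher by 0.50 and likewise below it. Its antisense neighbour SLC7A11-AS1 had 1 count in all libraries together.

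GCLC (ENSG00000001084, chr6:53497341-53616970, minus strand) encodes the catalytic subunit of glutamate cysteine ligase, the rate-limiting enzyme of glutathione synthesis. It was at 146, 139.1 and 144 CPM in CELF6-OE and at 122, 109.7 and 95.7 CPM in Control, without overlap. The mean was 27.5 ± 0.424 FPKM in CELF6-OE and 20.7 ± 3.08 FPKM in Control (SD, n = 3). GCLC rose by 0.39 on the log2 scale (SE 0.083, adjusted p = 0.00872), or 30.9%. The CELF6-OE libraries lay close together, and the Control libraries were spread.

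GCLM (ENSG00000023909, chr1:93885199-93909456, minus strand) encodes the modifier subunit of the same ligase. It was at 90.9, 91.6 and 90.7 CPM in CELF6-OE and at 89.5, 74.1 and 62.0 CPM in Control. The groups did not overlap, but Control replicate 1 lay just under the lowest CELF6-OE library. The log2 fold change was 0.28 (SE 0.11, 95% interval 0.04 to 0.51, adjusted p = 0.0984). Leaving out Control replicate 1 gave 0.41 with an adjusted p of 0.00102, and leaving out Control replicate 3 gave 0.16. The correction for GC content and length gave 0.22 with an adjusted p of 0.00565. The coefficient of variation (CV) of GCLM was 0.505% in CELF6-OE, the lowest of the members there, and 18.3% in Control, the highest of the members there.

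The second role was the thioredoxin system. TXNRD1 (ENSG00000198431, chr12:104215779-104350307, plus strand) encodes the cytosolic thioredoxin reductase, a selenoenzyme that keeps thioredoxin reduced. It was at 978, 1029.5 and 950.4 CPM in CELF6-OE and at 847, 778 and 719 CPM in Control, without overlap. The mean was 189 ± 9.03 FPKM in CELF6-OE and 147 ± 16.3 FPKM in Control (SD, n = 3). TXNRD1 rose by 0.34 on the log2 scale (SE 0.072, adjusted p = 0.00844), or 26.2%. Without Control replicate 2 the adjusted p was 0.0523.

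SRXN1 (ENSG00000271303, chr20:646615-653200, minus strand) encodes sulfiredoxin, which repairs over-oxidised peroxiredoxins. It was at 595, 574 and 552 CPM in CELF6-OE and at 465, 467 and 469 CPM in Control. The Control libraries were nearly identical, with a CV of 0.376%, the lowest of the members in that group. The mean was 206 ± 7.04 FPKM in CELF6-OE and 164 ± 4.07 FPKM in Control (SD, n = 3). SRXN1 rose by 0.30 on the log2 scale (SE 0.058, adjusted p = 0.00519), or 22.8%. The annotation places another gene on the same strand over 90.7% of its exon bases, and that gene had 1 count in all libraries together.

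The remaining 4 members showed no difference that passed the test. HMOX1 (ENSG00000100292, chr22:35380361-35394214, plus strand) encodes haem oxygenase, which opens the haem ring and frees iron. It was at 124, 131 and 133 CPM in CELF6-OE and at 116, 128 and 141 CPM in Control. Both the lowest and the highest value were Control libraries. The log2 fold change was 0.01 (SE 0.076, adjusted p = 0.934), and its 95% interval ran from -0.16 to 0.18. The correction for GC content and length moved it to 0.19 with an adjusted p of 0.0145.

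NQO1 (ENSG00000181019, chr16:69706996-69726668, minus strand) encodes the quinone reductase that is the classical NRF2 marker. It was at 2221, 1825 and 2160 CPM in CELF6-OE and at 2288, 2319 and 2218 CPM in Control. CELF6-OE replicate 1 lay within the Control range and replicate 2 well below it. The log2 fold change was -0.14 (SE 0.078, 95% interval -0.31 to 0.03, adjusted p = 0.248). The means were 641 ± 60.7 FPKM in CELF6-OE and 691 ± 30.9 FPKM in Control (SD, n = 3).

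AKR1B10 (ENSG00000198074, chr7:134527567-134541412, plus strand) and AKR1C1 (ENSG00000187134, chr10:4963253-4983283, plus strand) encode aldo-keto reductases that reduce carbonyls, retinal and, for AKR1C1, progesterone. AKR1B10 was at 3532, 2561 and 2996 CPM in CELF6-OE and at 3077, 2848 and 2647 CPM in Control. Both its highest and its lowest value were CELF6-OE libraries. Its log2 fold change was 0.08 (SE 0.11, 95% interval -0.15 to 0.32, adjusted p = 0.614). AKR1C1 was at 844, 600.04 and 791 CPM in CELF6-OE and at 985, 912 and 827 CPM in Control. CELF6-OE replicate 1 exceeded Control replicate 3, so the groups overlapped. Its log2 fold change was -0.29 (SE 0.11, 95% interval -0.53 to -0.04, adjusted p = 0.104). Without Control replicate 3 it was -0.35 with an adjusted p of 0.0411, and with the correction for GC content and length -0.31 with 0.0341.

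**Figure D3:**
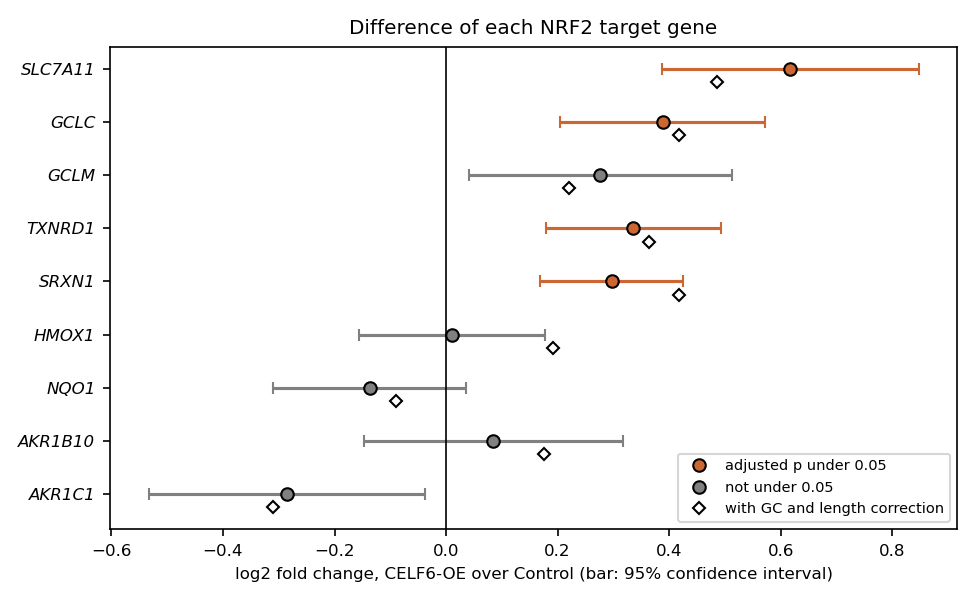
Log2 fold change of each NRF2 target gene, CELF6-OE over Control (x axis). Filled points are the fit with 95% confidence intervals, orange where the adjusted p is under 0.05, and open diamonds are the estimates after correction for GC content and transcript length. SLC7A11, GCLC, TXNRD1 and SRXN1 passed, and the diamond of HMOX1 lies at 0.19, beyond its uncorrected interval, which ends at 0.18.

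The libraries within a group did not move as one. Control replicate 1 was the highest Control library for 6 members (GCLC, GCLM, TXNRD1, SLC7A11, AKR1B10 and AKR1C1), and Control replicate 3 was the lowest for 7, all but SRXN1 and HMOX1. In CELF6-OE, replicate 2 was the lowest for NQO1, GCLC, AKR1B10 and AKR1C1. Replicate 3 was the lowest for GCLM, TXNRD1, SRXN1 and SLC7A11 and also had the lowest CELF6 count. Relative to the mean of all libraries, the 3917 genes with the lowest GC content had a median deviation of 0.12 on the log2 scale in Control replicate 1 and of -0.21 in Control replicate 3, and the 3916 genes with the highest GC content had -0.08 and 0.15. The median log2 fold change between groups was 0.09 in the former set and -0.07 in the latter. The transcripts of SLC7A11 and GCLM had a GC content of 35.4% and 37.3%, and those of SRXN1 and HMOX1 51.7% and 58.5%. Those of AKR1C1, NQO1, GCLC, TXNRD1 and AKR1B10 lay between, at 42.2%, 44.2%, 44.2%, 44.6% and 47.7%. After the correction SLC7A11, GCLC, TXNRD1 and SRXN1 still passed the test, with log2 fold changes of 0.49, 0.42, 0.36 and 0.42. GCLM and HMOX1 then passed as higher and AKR1C1 as lower, in a fit in which 20.8% of all genes passed as higher and 12.8% as lower.

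**Figure D4:**
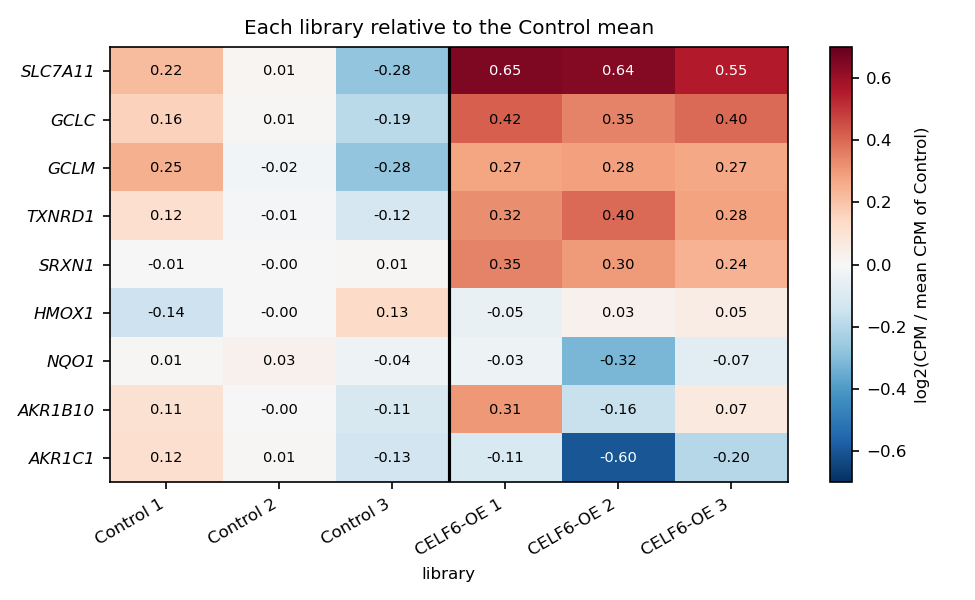
Log2 ratio of each library's CPM to the mean CPM of the 3 Control libraries (colour and printed value), genes in rows and libraries in columns. SLC7A11 is at 0.55 to 0.65 in the CELF6-OE libraries, and AKR1C1 is at -0.60 in CELF6-OE replicate 2.

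Promoter windows from RefSeq (GRCh38.p14, from 250 bases before to 50 after the start) were found for 6 members, NQO1, GCLC, GCLM, TXNRD1, SRXN1 and AKR1C1. They were searched on both strands for TGACNNNGC, the core of the antioxidant response element. GCLM held 1 match, which begins 34 bases upstream of the start, and TXNRD1 held matches in both of its windows, beginning 99 and 8 bases upstream in one and 102 bases upstream in the other. Of 35116 promoter windows of the same length, 13.35% held a match. The stricter form TGACTCAGC, of the same length, was in none of the members' windows and in 0.56% of all windows. The search could not find elements more than 250 bases upstream, so a window without a match does not show that the gene lacks one. The stretches with the matches are shown because they hold the matches in the 2 members, of which TXNRD1 rose and GCLM did not pass the test. Each runs 5′ to 3′ on the strand of the gene from 120 bases before to 10 bases after the start, and capitals mark the match, which reads in reverse complement where it lies on the other strand. They are GCLM at chr1:93909421-93909550 on the minus strand and TXNRD1 at chr12:104215659-104215788 and chr12:104286912-104287041 on the plus strand.
GCLM: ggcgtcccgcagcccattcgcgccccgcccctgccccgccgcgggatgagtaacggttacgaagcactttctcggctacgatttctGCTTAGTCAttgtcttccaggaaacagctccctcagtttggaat
TXNRD1 first window: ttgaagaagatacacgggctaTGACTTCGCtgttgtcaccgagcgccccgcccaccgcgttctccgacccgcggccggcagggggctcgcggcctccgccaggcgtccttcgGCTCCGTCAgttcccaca
TXNRD1 second window: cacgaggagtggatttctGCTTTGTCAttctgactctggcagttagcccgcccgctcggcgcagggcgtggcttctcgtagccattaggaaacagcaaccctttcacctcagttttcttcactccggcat

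Near relatives of the aldo-keto reductases were read beside them. AKR1C2, a steroid dehydrogenase beside AKR1C1 on chromosome 10, was at 2332, 1835 and 2405 CPM in CELF6-OE and at 2754, 2809 and 2581 CPM in Control, and fell by 0.31 on the log2 scale (adjusted p = 0.0447). This call was kept in 3 of the 6 fits that left out 1 library. AKR1C3 was at -0.24 (adjusted p = 0.172) and AKR1B1, the aldose reductase, at -0.19 (adjusted p = 0.0855). AKR1B15, next to AKR1B10, was at 11.2, 6.29 and 7.93 CPM in CELF6-OE and at 19.0, 33.3 and 14.0 CPM in Control, and fell by 1.39 (adjusted p = 0.00720). AKR1B10 and AKR1B15 had no stretch of 150 bases in common with transcripts of another gene. Only identical stretches were sought, while the authors' alignment allowed mismatches. Reads of AKR1B10 counted for the far lower AKR1B15 were therefore not excluded, and the level of AKR1B15 is uncertain to that extent. Of the 150-base stretches of AKR1C1 transcripts, 7.5% occurred in AKR1C2, and of those of AKR1C2 10.6% occurred in AKR1C1. Only reads with a unique location were counted, so reads from these shared stretches could be lost to both genes, and their levels are uncertain to that extent. The count of AKR1C1 per count of AKR1C2 was 0.362, 0.327 and 0.329 in CELF6-OE and 0.358, 0.325 and 0.320 in Control, so the ratio overlapped between groups.

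The regulators of the pathway did not move one way. Of 16 listed genes 15 were tested, BACH2 being below the filter, and 3 rose and 4 fell, beside 6.52% and 11.5% of all genes. NFE2L2 itself was at 52.0, 56.1 and 51.4 CPM in CELF6-OE and at 60.5, 48.5 and 41.4 CPM in Control, with all CELF6-OE libraries inside the Control range. Its log2 fold change was 0.08 (95% interval -0.17 to 0.34, adjusted p = 0.647). Without Control replicate 1 it was 0.23 with an adjusted p of 0.0400, and without Control replicate 3 it was -0.04. KEAP1 was at 115, 112 and 102 CPM in CELF6-OE and at 95.6, 107 and 109.6 CPM in Control, and its log2 fold change was 0.08 (adjusted p = 0.499), or 0.24 with an adjusted p of 0.00655 after the correction for GC content and length. CUL3, the scaffold of the ligase that degrades NRF2, rose by 0.29 (adjusted p = 0.0337), and GSK3B, the kinase that marks NRF2 for another ligase, rose by 0.25 (adjusted p = 0.0471). The call of CUL3 was kept in 12 of the 18 alternative fits and that of GSK3B in 9. Among the small MAF partners, MAFG rose by 0.26 (adjusted p = 0.0172) and MAFK fell by 0.46 (adjusted p = 0.00312). The related factors NFE2L3 and NFE2L1 fell by 1.31 and 0.23 (adjusted p = 8.86e-06 and 0.0191), and DPP3, which binds KEAP1, fell by 0.27 (adjusted p = 0.0240). When 1 library was left out, 2 regulators passed without CELF6-OE replicate 1, CELF6-OE replicate 2 or Control replicate 2. In these fits 2.43%, 1.77% and 1.83% of all genes passed as higher and 6.97%, 6.57% and 6.67% as lower. Without CELF6-OE replicate 3, 4 regulators passed, beside 3.92% and 9.34% of all genes as higher and lower. Without Control replicate 1, 9 passed, beside 12.0% and 14.9% of all genes. NFE2L3 was at 22.4, 25.6 and 29.3 CPM in CELF6-OE and at 64.8, 64.3 and 62.6 CPM in Control.

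Other NRF2 targets, listed from general knowledge of the pathway, mostly lay on the lower side. Of 47 listed, 46 were in the fit, and 4 rose and 13 fell, beside 6.52% and 11.5% of all genes. Their median log2 fold change was -0.11, and 34 of 46 were below zero, against a median of 0.01 and 48.3% below zero for all genes tested. Each CELF6-OE library lay below each Control library for 20 of the 46 and above for 4, beside 20% and 17.9% of all genes. The glutathione reductase GSR rose by 0.27 (adjusted p = 0.00906), and GSTM4, a glutathione transferase, fell by 0.43 (adjusted p = 0.0152). Neither TXN, PRDX1 nor PRDX6 of the thioredoxin system passed the test. With the correction for GC content and length TXN was at -0.19 (adjusted p = 0.0481) and PRDX1 at 0.20 (adjusted p = 0.00959), and without Control replicate 1 PRDX6 was at -0.17 (adjusted p = 0.0452). Of 7 genes of iron and haem handling, FECH, the last enzyme of haem synthesis, rose by 0.25, while ABCB6, BLVRA and BLVRB fell by 0.37, 0.22 and 0.35. The call of BLVRA (adjusted p = 0.0495) was kept in 5 of the 18 alternative fits. That of FECH was kept in 12, and those of ABCB6 and BLVRB in 16 each. BLVRA and BLVRB reduce biliverdin, the product of haem oxygenase.

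Of the 14 detoxification enzymes tested, 7 fell and 0 rose, beside 11.5% and 6.52% of all genes. The number that fell was 4 without CELF6-OE replicate 1 and 2 without CELF6-OE replicate 2 or without Control replicate 2. In these 3 fits 6.97%, 6.57% and 6.67% of all genes passed as lower. Without Control replicate 1, 8 fell and 1 rose, beside 14.9% and 12.0% of all genes. AKR1B15 and AKR1C2 were 2 of the 7 that fell in the fit of all libraries. The others were the carbonyl reductase CBR1 (-0.24), the prostaglandin reductase PTGR1 (-0.27), the epoxide hydrolase EPHX1 (-0.34), the cytochrome CYP4F11 (-0.39) and the glucuronosyltransferase UGT1A6 (-1.14). With the correction for GC content and length, CBR1 and EPHX1 did not pass (adjusted p = 0.110 and 0.127). UGT1A6 was at 0.662 to 1.38 CPM in CELF6-OE and 1.56 to 3.18 CPM in Control, and it shares exons with the other genes of the UGT1A cluster, so its level is uncertain. Of 4 export pumps tested, 2 fell and 0 rose, beside 11.5% and 6.52% of all genes. ABCC3 and ABCC1, which carry glutathione and glucuronide conjugates out of the cell, fell by 0.57 and 0.33 (adjusted p = 0.000549 and 0.00515). ABCC2 and ABCC5 were at -0.07 and 0.04 (adjusted p = 0.569 and 0.752). ABCC3 was at 141, 127 and 159 CPM in CELF6-OE and at 208, 215 and 213 CPM in Control, without overlap. Among 6 signalling genes, the nuclear receptor NR0B1 rose by 0.53 (adjusted p = 0.000649) and OSGIN1 by 0.42 (adjusted p = 0.00408). NR0B1 was at 55.5, 58.2 and 53.0 CPM in CELF6-OE and at 35.3, 39.3 and 40.6 CPM in Control. The number of other targets that fell was 7 with limma on FPKM values, where 9.5% to 9.57% of all genes passed as lower. It was 4 to 16 when 1 library was left out. It was 4 without CELF6-OE replicate 2 or Control replicate 2, beside 6.57% and 6.67% of all genes. Without Control replicate 3 it was 16, beside 12.8% of all genes.

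**Figure D5:**
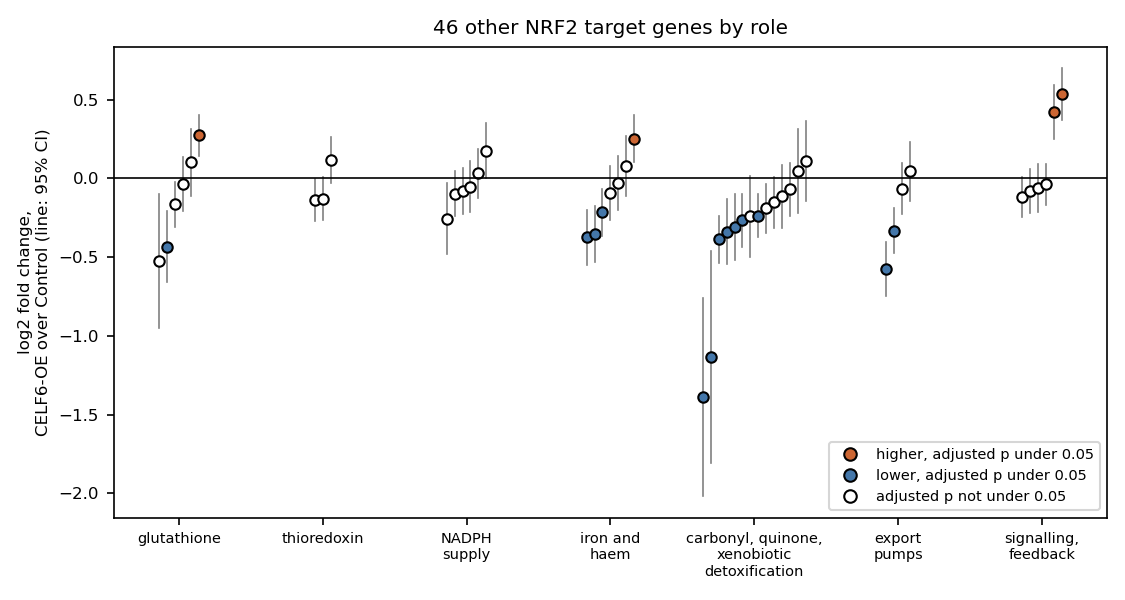
Log2 fold change, CELF6-OE over Control (y axis), of the 46 other NRF2 target genes tested, grouped by role and ordered within each group. Lines are 95% confidence intervals, orange points rose, blue points fell, and open points did not pass. The detoxification group holds 7 that fell and 0 that rose, and both signalling genes that passed rose.

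The protein partners of the members were also read. SLC3A2, the heavy chain that holds the SLC7A11 protein at the membrane, was at 829.7, 851 and 763 CPM in CELF6-OE and at 631, 706 and 786 CPM in Control. The groups overlapped, since Control replicate 3 exceeded CELF6-OE replicate 3, and the log2 fold change was 0.20 (adjusted p = 0.111). It passed with library size as the only scaling (0.24, adjusted p = 0.0378), without Control replicate 3 (0.29, adjusted p = 0.0148) and with the correction for GC content and length (0.34, adjusted p = 0.00212). GGCT, which handles gamma-glutamyl dipeptides of the glutathione cycle, rose by 0.28 (adjusted p = 0.0149). GSS, which completes glutathione, was at -0.06 (adjusted p = 0.571).

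The ATF4 and heat shock programmes share genes with NRF2. SLC7A11 is a target of ATF4, the factor of the amino acid response, and HMOX1 is also a heat shock gene. Of 15 other genes of the ATF4 response, ATF4 included, 1 rose and 5 fell, beside 6.52% and 11.5% of all genes, and the median log2 fold change was -0.06. PSAT1, a serine synthesis enzyme, rose by 0.35 (adjusted p = 0.00242). ATF3, CTH, SESN2, DDIT4 and CEBPB fell, ATF3 by 0.60 (adjusted p = 0.00132) and CTH, which makes cysteine from cystathionine, by 0.58 (adjusted p = 0.0492). CTH was low, at 2.22 to 4.51 CPM, and its call was kept in 9 of the 18 alternative fits. ATF4 itself was at 0.08 (adjusted p = 0.473), or at 0.25 with an adjusted p of 0.00201 after the correction for GC content and length. Of 12 heat shock genes, 9 rose and 0 fell, beside the same shares of all genes, with a median of 0.39. Without CELF6-OE replicate 2, 5 passed, in a fit in which 1.77% of all genes passed as higher and 6.57% as lower. HSPA6, an inducible HSP70, was at 74.5, 75.6 and 53.5 CPM in CELF6-OE and at 2.51, 2.07 and 2.38 CPM in Control, a log2 fold change of 4.87. HSPA1A, HSPA1B and DNAJB1 rose by 0.66, 0.60 and 0.60, and BAG3, HSPH1, HSP90AA1 and HSPA8 by 0.25 to 0.40. HSPA1A and HSPA1B are near-identical, so the split of reads between them is uncertain. The log2 fold change of HMOX1 beside them was 0.01, or 0.19 with an adjusted p of 0.0145 after the correction for GC content and length.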

How the data were processed

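RNA from 3 CELF6-OE and 3 Control cultures was sequenced as stranded, polyadenylated, paired-end libraries. Per the study's methods, the authors trimmed the reads, aligned them to GRCh38 with TopHat2, and kept reads with a unique location. The deposited tables hold read counts per gene, not normalized, and FPKM values, which the authors computed from such reads. How reads were counted, with which strand setting and on which annotation release, is not given in the sources used here.

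Counts were scaled with TMM and tested with edgeR 4.0.16 (R 4.3.3), using the quasi-likelihood test without a block and Benjamini-Hochberg adjustment over the 15847 genes kept by filterByExpr (minimum count 10). The prior degrees of freedom were 7.26 (11.9 without a filter), and the biological coefficient of variation was 8.62%. Fold changes are CELF6-OE over Control. Group and replicate came from the labels. Library totals were 33748328 to 37920700 counts. Levels of different genes were compared in FPKM. The procedure was tested on simulated data. These held no trend over GC content, so the simulation does not cover the trend seen between the libraries.

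The members and gene lists were chosen with earlier results of these data known, and no list was tested as a set. Named were the members, CELF6, NFE2L2, KEAP1, SLC3A2, the relatives AKR1C2, AKR1C3, AKR1B1 and AKR1B15, list genes with an adjusted p under 0.05 (at most 8 per list, by p) and the 3 genes most like the member with the largest change. Genes outside this rule are named where a small group was counted, after their values were seen. ADH7, 1 listed target, had no row in the count table.

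Alternatives were RLE, upper quartile and library size scaling, no filter, DESeq2 1.42.0, limma-voom and limma 3.58.1 on log2(FPKM + 1) and log2(FPKM + 0.1), the legacy quasi-likelihood test, removal of the CELF6 counts, the replicate number as a block, and leaving out each library. A correction for GC content and transcript length, from GENCODE v44 transcripts matched to 98.9% of the genes tested, was added after seeing the data. Replicate libraries of a group differed beyond sampling noise (chi-square per degree of freedom 7.67 to 29.3). Splicing was not analysed here.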

Additional observations from a re-analysis of the deposited data

How the results depend on the processing

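Across the 12 settings that kept all libraries, 105 of 108 values of the 9 members kept their direction and their side of the threshold. The 3 others were GCLM, HMOX1 and AKR1C1, which among these settings passed only with the correction for GC content and length. That correction raised the genes called from 2860 to 5263 and the share of calls that were higher from 36.1% to 61.8%, and scaling by library size only raised that share to 46.4%. It also gave 1 lower member, 0 members past the DEG threshold, 7 higher other targets and 4 partners of the members past the test, and limma on log2(FPKM + 1) gave 0 members past the DEG threshold. The lower other targets were 7 with limma at either pseudocount, against 13. The partners past the test were 1, against 2, with RLE, upper quartile, no filter, DESeq2, the replicate block and limma at either pseudocount.

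Leaving out 1 library gave 3 to 5 higher members, 0 to 1 lower members (1 without Control replicate 3), 0 to 1 past the DEG threshold (0 without Control replicate 3), 2 to 6 higher other targets (2 without CELF6-OE replicate 1 or Control replicate 2), 4 to 16 lower ones, 2 to 9 regulators, 0 to 3 partners (0 without Control replicate 2 or any CELF6-OE library), 4 to 8 ATF4 targets and 5 to 10 heat shock genes. The log2 fold change of HMOX1 turned to -0.00136, -0.0155 and -0.0647 without CELF6-OE replicate 2, CELF6-OE replicate 3 and Control replicate 1, AKR1B10 to -0.0381 without CELF6-OE replicate 1, and NFE2L2 to -0.0354 without Control replicate 3, while the highest values with 1 library left out were 0.0829, 0.19 and 0.23. Over all genes 1523, 1351, 1368 and 4318 passed without CELF6-OE replicate 1, CELF6-OE replicate 2, Control replicate 2 and Control replicate 1. The cause was not tested.

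Libraries with the same number did not deviate together (correlations of -0.0113, -0.0212 and -0.0722), and pairs with different numbers gave -0.0420 to 0.0580. Whether libraries with the same number were prepared together is not given in the sources used here, and this check cannot exclude it. With the replicate block 2345 genes passed, against 2860, and 4 members, as without it. With 3 libraries a group, the intervals of the 5 members that did not pass still include changes of 0.18 to 0.53 on the log2 scale in the direction of the wider bound, so absence of a change was not shown.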

Other observations

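SLC7A11 was the member with the largest difference. Over the 6 libraries, the genes whose log2 CPM followed it most closely were MBOAT2 (Pearson r = 0.999), ATP6V1A (0.998) and HMGB1 (0.998), of 15846 compared. Their transcripts have a GC content of 38.1%, 40.5% and 37.8%, and that of SLC7A11 is 35.4%. Among the members, GCLC ranked 42 (r = 0.990) and TXNRD1 ranked 58 (r = 0.989), while NQO1 was at -0.529. The points share library, depth and base composition, and no test was made.

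The count of GCLM per count of GCLC was 0.623, 0.658 and 0.632 in CELF6-OE and 0.733, 0.675 and 0.648 in Control. The count of SLC7A11 per count of SLC3A2 was 0.117, 0.114 and 0.119 in CELF6-OE and 0.115, 0.0884 and 0.0651 in Control, so that Control replicate 1 lay at the level of the CELF6-OE libraries and Control replicate 3 was lowest.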
